A study of Mus musculus with 6 samples.

Results

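The genes described here move zinc and iron in and out of cells and organelles, change the redox state of iron, store these metals or sense them. They were taken by name: every mouse gene called Slc30a or Slc39a followed by a number, together with Cybrd1, Slc11a2, Slc40a1, Tfrc, Tfr2, Fth1, Ftl1, Mt1, Mt2, Steap1 to Steap4, Aco1, Ireb2 and Cp. This gave 40 genes, 10 of the Slc30a and 14 of the Slc39a family and 16 others, of 19935 genes in the series, and all 40 had a probe set on the array. Expression was compared between osteoblastic cells of 4 wild-type (WT) arrays and 2 arrays from mice deficient in Y1, a receptor for neuropeptide Y (Y1KO). Both genotypes were male, and all mice carried green fluorescent protein (GFP) driven by 3.6 kb of the rat promoter for the alpha1 chain of type I collagen. Marrow stromal cells from femora and tibias had grown for 7 days in control medium before GFP-positive cells were sorted. The sorting reporter follows 1 collagen promoter, so the cells are those in which it was active. No source used here gives the age of the mice, or says whether Y1 was lost from all cells or from some. Nor is it stated that the arrays of a genotype came from separate mice or cultures. The only spread behind a p-value is that from array to array, and it may be technical.

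Cells hold almost all of their zinc and iron in bound form. SLC30 (ZnT) proteins carry zinc out of the cytosol, across the cell surface or into organelles, and SLC39 (ZIP) proteins carry it into the cytosol. Metallothioneins bind zinc in the cytosol and are switched on by the zinc-sensing transcription factor MTF-1. Iron enters on transferrin through the transferrin receptor, is reduced by STEAP enzymes, crosses membranes through DMT1 (the product of Slc11a2), is stored in ferritin, and leaves through ferroportin (Slc40a1) with the help of the copper oxidase ceruloplasmin (Cp). In osteoblasts, zinc is a cofactor of alkaline phosphatase, which receives it in the secretory pathway, and iron is a cofactor of the hydroxylases that modify collagen.

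Values are log2 expression on the array, and those of single arrays are given in order of replicate, 1 to 4 for WT and 1 and 2 for Y1KO. A difference is Y1KO minus WT on that scale, and a difference of 1 is a 2-fold change. A gene was called, and is said to have risen or fallen, where limma's Benjamini-Hochberg adjusted p over all 19935 genes was under 0.05. The array medians lay between 5.3 and 5.37, and correlations over all genes were 0.9911 to 0.9958 among WT arrays, 0.9961 between the Y1KO arrays and 0.9762 to 0.9875 across genotypes. Osteoblast markers were bright in every array: 8 of 11 were measured, and their mean was 11.14 to 11.87 over the WT arrays and 12.25 and 12.26 in Y1KO. In all 8 both Y1KO arrays lay above every WT array, as in 17.5% of all genes, and 1 was called higher, Ifitm5. Over all genes 6.1% were called higher and 6.64% lower, shares that also stand beside the marker counts below. Their differences ran from 0.18 for Col1a1 to 1.66 for Ifitm5 and Dmp1. Col1a1, at 13.42 ± 0.05 (SD, n = 4) in WT, was among the brightest of all genes. In the same arrays the mean of 14 macrophage markers was 5.29 to 5.53 in WT and 5.69 and 6.13 in Y1KO, with 8 of 14 called higher. That of 19 genes of dividing cells was 8.52 to 8.64 in WT and 7.79 and 7.61 in Y1KO, with 19 of 19 called lower. The mean of 12 smooth muscle and pericyte genes was 8.44 to 8.76 in WT and 7.73 and 7.65 in Y1KO, where 9 were called lower and 1 higher. For 8 osteoclast markers it was 5.43 to 5.49 in WT and 5.57 and 5.59 in Y1KO, with 0 called by limma or without moderation and 3 at an unadjusted p under 0.05. Of the macrophage markers, Cd163, Ptprc and Itgam were the dimmest in WT, at 3.38, 4.18 and 4.17, and Lyz2 and Fcer1g the brightest, at 8.49 and 7.59. The rest lay between, from 4.52 for Adgre1 to 5.97 for Cd68. The part of these cells in the differences given next was not tested.

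Short stretches of promoter are shown first, because they carry the sequences known to answer to zinc and to stress of the endoplasmic reticulum (ER). RefSeq's promoter sequences for mouse build GRCm38.p6 (250 bases before and 50 after an annotated start) matched 34 of the 40 genes, with 49 promoters, since some genes have several starts. The metal response element that MTF-1 binds was searched as TGCACNC or TGCGCNC on both strands. At least 1 match was present in 18 of the 49 promoters, and in 25.7% of all 32851 promoters of that length. The promoter of Mt2 held 4 matches. Those of Mt1, Slc30a4 and Slc30a10 held 3 each, of which 2 in Slc30a10 overlap on opposite strands. Those of Slc30a1, Slc30a2 and Tfrc held 2, overlapping in Tfrc. At least 2 matches were thus found in 7 of the 49 promoters and in 7.11% of all promoters, at least 3 in 4 of the 49 and in 1.97%, and at least 4 in 1 of the 49 and in 0.517%. Of these 7 genes Mt1 was called in Y1KO and the other 6 were not, beside 12.7% called over all genes. The windows of Mt1, Mt2 and Slc30a1 are printed because these genes are textbook targets of MTF-1. Matches are printed in capitals, read on the strand that spells the motif, each with 10 bases on either side. Positions count from 1 at the annotated start, with negative numbers before it, and a second number gives the end of the match.

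Mt1, -23 to -17, gene strand, chr8:94179056-94179082: ggtcccgctgTGCACACtggcgctcca
Mt1, 3 to 9, gene strand, chr8:94179081-94179107: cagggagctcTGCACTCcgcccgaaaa
Mt1, 21 to 27, gene strand, chr8:94179099-94179125: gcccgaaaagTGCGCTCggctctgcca
Mt2, -223 to -217, gene strand, chr8:94172385-94172411: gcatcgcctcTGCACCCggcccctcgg
Mt2, -128 to -122, gene strand, chr8:94172480-94172506: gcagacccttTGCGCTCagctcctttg
Mt2, -50 to -44, opposite strand, chr8:94172558-94172584: ggacagagccTGCACACgccctccccc
Mt2, 5 to 11, opposite strand, chr8:94172612-94172638: cccctgggccTGCGCACgacccgaatt
Slc30a1, -43 to -37, opposite strand, chr1:191906728-191906754: aactttgcttTGCACTCggaacccccg
Slc30a1, 31 to 37, opposite strand, chr1:191906801-191906827: ccgcggcgacTGCGCTCggcccggagg

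The letters TGACGTGG, the unfolded protein response element read by the ER stress factors ATF6 and XBP1, were searched in the same way. They were present in 3 of the 49 promoters and in 0.676% of all promoters. These were the promoters of Slc30a5, Slc39a13 and 1 of the starts of Slc39a5. Slc30a5 and Slc39a13 were among the genes called higher in Y1KO, and the matches began at bases 7 and 9 after the start, on the strand of the gene. In Slc39a13 a metal response element match followed at 18 to 24, without overlap. The cAMP response element TGACGTCA, which shares its first letters with this motif, was found in 0 of the 49 promoters and in 1.79% of all promoters. Motifs were chosen with the expression values known, and a match describes letters, not binding.

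Slc30a5, 7 to 14, gene strand, chr13:100833404-100833431: ccggggcggaTGACGTGGcccggtaacg
Slc39a13, 9 to 16, gene strand, chr2:91070290-91070317: ctgtcccgtgTGACGTGGctgcacgccg
Slc39a5, -52 to -45, gene strand, chr10:128400501-128400528: gccctccttgTGACGTGGcttccactgc

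Of the 40 genes, 10 rose and 4 fell in Y1KO. Over all genes 12.7% were called, 6.1% higher and 6.64% lower. The 10 that rose were Slc30a5, Slc30a6, Slc39a7, Slc39a9, Slc39a11, Slc39a13, Slc39a14, Slc11a2, Cybrd1 and Mt1, and the 4 that fell were Cp, Steap2, Steap4 and Tfr2. The median difference of the 40 genes was 0.13, against 0.01 over all genes. Both Y1KO arrays lay above every WT array for 18 of the 40 and below every WT array for 8 of the 40. Over all genes these shares were 17.5% and 17.3%. The number called rested on both Y1KO arrays: without Y1KO replicate 1 it was 4 higher and 1 lower, and without Y1KO replicate 2 it was 1 higher and 1 lower. Without WT replicate 4 it was 9 higher and 2 lower. With the variance of each gene estimated from its own 6 arrays alone, without moderation, it was 1 higher, Slc39a11, and 0 lower. There 22 of the 40 genes had an unadjusted p under 0.05. Fewer genes were called over the whole series too in each of these runs. Of 19935 genes, 2541 were called as reported, 2117 without WT replicate 4 and 344 without moderation.

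**Figure D1:**
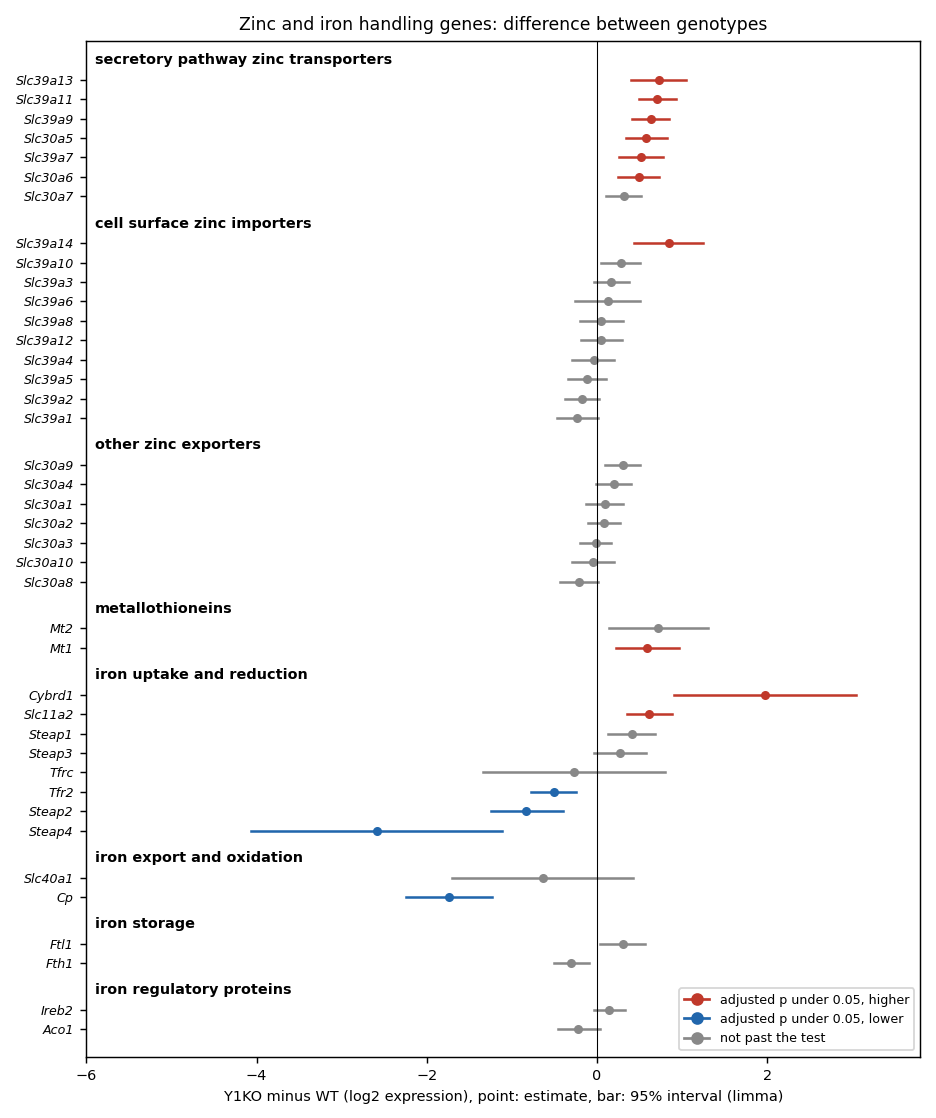
Difference in log2 expression between Y1KO and WT for all 40 genes, grouped by role, as points with the 95% interval of the limma fit. The 7 zinc transporters grouped under the secretory pathway all lie to the right of 0, between 0.32 and 0.73. The iron genes spread from -2.59 for Steap4 to 1.97 for Cybrd1.

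The clearest pattern among the zinc transporters was in 7 that work in the ER, the Golgi or vesicles of the secretory pathway. Slc30a5, Slc30a6 and Slc30a7 load the Golgi and early secretory vesicles with zinc, and Slc39a7, Slc39a9, Slc39a11 and Slc39a13 release zinc from the ER, the Golgi or vesicles into the cytosol. Of these 7 genes, 6 rose and 0 fell, beside 6.1% and 6.64% over all genes. In all 7 the Y1KO arrays lay above every WT array, as in 17.5% of all genes. The median difference was 0.58. The grouping by organelle was made with the values known, so these counts describe the genes and carry no test. It left out Slc30a2, Slc30a3, Slc30a4 and Slc30a8, whose products also load vesicles. These differed by 0.08, -0.01, 0.20 and -0.21 and were not called, so the counts depend on where the line was drawn. Mean expression of the 7 was 8.93, 8.74, 8.68 and 8.89 in WT and 9.37 and 9.39 in Y1KO.

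Slc39a13 (ZIP13), whose loss in mice and people causes a disorder of bone and connective tissue, read 9.70, 9.33, 9.23 and 9.63 in WT and 10.15 and 10.25 in Y1KO. It rose by 0.73 (SE 0.14, limma adjusted p = 0.0115), or 1.66-fold. The Y1KO arrays stood close together, while WT replicates 1 and 4 stood above WT replicates 2 and 3. Slc39a11 read 7.69, 7.69, 7.49 and 7.65 in WT and 8.29 and 8.39 in Y1KO, and rose by 0.71 (SE 0.09, limma adjusted p = 0.00251). It was the gene with the smallest p among the 10 that rose. Slc39a9 (ZIP9) read 9.08, 8.89, 8.87 and 9.0 in WT and 9.57 and 9.61 in Y1KO, a rise of 0.63 (SE 0.10, limma adjusted p = 0.00414). The gap between genotypes was wider than the whole WT range of 0.22.

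Slc39a7 (ZIP7), the main zinc release channel of the ER, read 9.57, 9.33, 9.21 and 9.36 in WT and 9.82 and 9.95 in Y1KO. Its rise was 0.52 (SE 0.11, limma adjusted p = 0.0181), with WT replicate 1 the nearest to the Y1KO arrays. Slc30a5 and Slc30a6 encode the ZnT5 and ZnT6 subunits that form 1 transporter, which supplies zinc to alkaline phosphatase. Slc30a5 read 9.40, 9.18, 9.20 and 9.45 in WT and 9.88 and 9.89 in Y1KO, a rise of 0.58 (SE 0.11, limma adjusted p = 0.00884). Slc30a6 read 7.80, 7.61, 7.65 and 7.82 in WT and 8.30 and 8.11 in Y1KO, a rise of 0.49 (SE 0.10, limma adjusted p = 0.0166). In both genes WT replicates 1 and 4 were the higher WT arrays, as they were in Slc39a13. Slc30a7, whose product ZnT7 acts in parallel on the same enzyme, read 9.26, 9.19, 9.12 and 9.33 in WT and 9.56 and 9.53 in Y1KO. Its difference of 0.32 (95% interval 0.11 to 0.52) did not pass the test (limma adjusted p = 0.0589), although the groups did not overlap. Alkaline phosphatase itself, Alpl, stood at 11.54 ± 0.14 (SD, n = 4) in WT, with a difference of 0.23 (limma adjusted p = 0.254).

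The calls within this group were lost more readily than the sizes moved. Each of the 6 calls held when any 1 WT array was left out. Without Y1KO replicate 1, Slc39a9 and Slc39a11 were still called and the adjusted p of the other 4 was 0.0726 to 0.158. Without Y1KO replicate 2, Slc39a11 was still called and the adjusted p of the other 5 was 0.063 to 0.181. With the replicate number as a block, Slc39a7 lost its call (0.44, adjusted p = 0.0916). The median difference of the 7 genes lay between 0.53 and 0.62 in every alternative run. Without moderation Slc39a11 alone kept its call, and the adjusted p of the other 5 called genes was 0.0555 to 0.122.

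**Figure D2:**
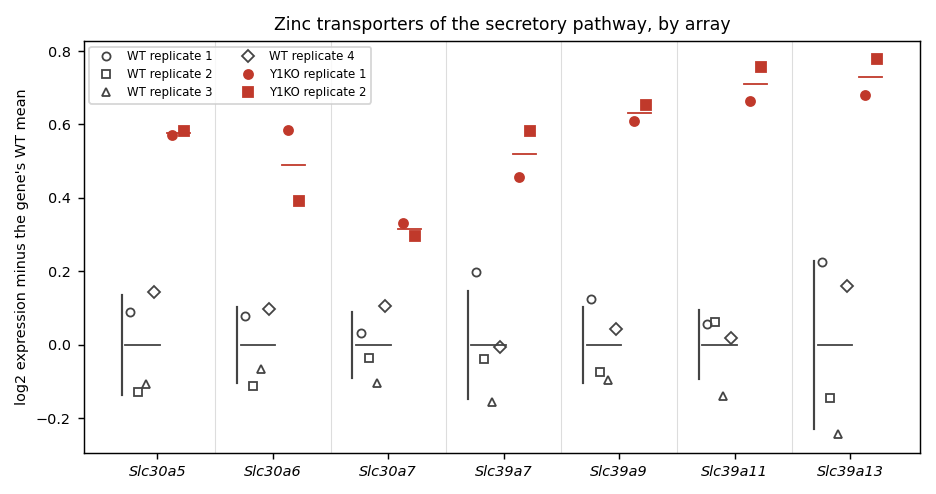
Log2 expression of the 7 secretory pathway zinc transporters in each array, minus the WT mean of that gene. Open symbols are WT arrays, filled symbols Y1KO arrays, short horizontal lines the group means and vertical lines 1 SD around the WT mean (n = 4). For every gene the 2 Y1KO arrays lie above all 4 WT arrays.

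Among the 17 zinc transporters outside this group, 1 rose and 0 fell, beside 6.1% and 6.64% over all genes, with a median difference of 0.05. Mean expression was below the 40th percentile of all genes for 7 of the 17, and for 0 of the 7 in the group. The gene that rose was Slc39a14 (ZIP14), a surface transporter that takes up zinc, manganese and iron that is not bound to transferrin. It read 9.26, 8.68, 8.64 and 9.10 in WT and 9.73 and 9.78 in Y1KO, a rise of 0.84 (SE 0.18, limma adjusted p = 0.0156), or 1.79-fold. WT replicates 1 and 4 were again above WT replicates 2 and 3, and all WT arrays were below both Y1KO arrays. The call was lost without Y1KO replicate 1 (adjusted p = 0.0973) or Y1KO replicate 2 (0.142). Slc39a8 (ZIP8), its closest relative with a similar range of metals, read 5.23, 5.46, 5.42 and 5.42 in WT and 5.58 and 5.29 in Y1KO. The groups overlapped, and the difference was 0.05 (95% interval -0.20 to 0.31, limma adjusted p = 0.847). Whether Slc39a14 and Slc39a8 differ in their response was not tested.

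Of the other surface importers, Slc39a10 was 0.28 higher in Y1KO (95% interval 0.05 to 0.51, limma adjusted p = 0.123) and Slc39a1 differed by -0.23 (-0.47 to 0.01), with groups that did not overlap in either gene. A second, dimmer probe set of Slc39a1 differed by -0.05. Slc39a6 differed by 0.13 and Slc39a3 by 0.17, and neither passed. Slc39a2, Slc39a4, Slc39a5 and Slc39a12 were dim, at or below percentile 39.8 of all genes by mean expression, with differences between -0.18 and 0.05, and the array can understate differences there.

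No call was made among the 7 remaining exporters of the Slc30a family: 0 rose and 0 fell by limma, beside 6.1% and 6.64% over all genes. Among them 1 had an unadjusted p under 0.05, and 0 were called without moderation. Slc30a1, the exporter at the cell surface and a textbook target of MTF-1, read 6.76, 6.74, 6.59 and 6.73 in WT and 6.71 and 6.88 in Y1KO. The groups overlapped, and the difference was 0.09 (95% interval -0.13 to 0.31, limma adjusted p = 0.658). Slc30a9, linked to mitochondrial zinc, differed by 0.30 (limma adjusted p = 0.0717), and Slc30a4, of endosomes and lysosomes, by 0.20 (0.221). Slc30a2, Slc30a3, Slc30a8 and Slc30a10 differed by 0.08, -0.01, -0.21 and -0.05. Of these, Slc30a2, Slc30a8 and Slc30a10 were dim, at percentiles 39.0, 17.7 and 38.6 by mean expression, where the array can understate differences. For Slc30a3 the sign turned with quantile normalization and with median-centred arrays, to 0.05 and 0.01.

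The metallothioneins, which bind zinc and are induced by it, were higher in Y1KO on average and differed between the Y1KO arrays. Mt1 read 9.88, 9.83, 9.67 and 9.58 in WT and 10.04 and 10.63 in Y1KO. It rose by 0.59 (SE 0.16, limma adjusted p = 0.0459), or 1.51-fold, close to the threshold. Mt2 read 8.89, 9.02, 8.70 and 8.37 in WT and 8.99 and 9.94 in Y1KO. Its difference was 0.72 (95% interval 0.14 to 1.30, limma adjusted p = 0.113), and Y1KO replicate 1 lay inside the WT range. In both genes Y1KO replicate 2 was the higher array. Without that array the difference was 0.30 for Mt1 (adjusted p = 0.384). Mt2 differed by 0.25 without Y1KO replicate 2 (adjusted p = 0.696) and by 1.19 when Y1KO replicate 1 was left out (0.0338). Mt1 also lost its call when any 1 WT array was left out (adjusted p = 0.0522 to 0.0998) and with quantile normalization (0.0634). The macrophage mean was also higher in Y1KO replicate 2, at 6.13, than in replicate 1, at 5.69; its part in the metallothionein values was not tested.

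**Figure D3:**
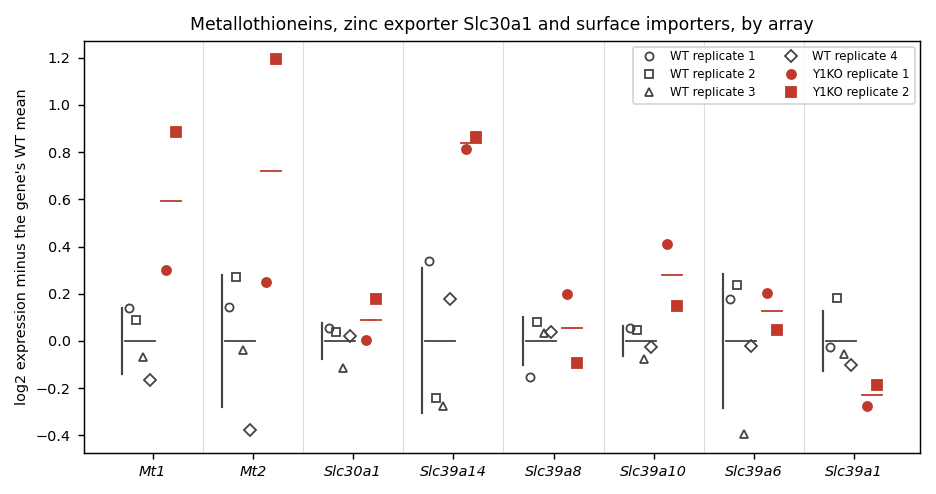
Log2 expression of Mt1, Mt2, the exporter Slc30a1 and 5 surface zinc importers in each array, minus the WT mean of that gene, with symbols and lines as in the plot of the secretory pathway transporters. Y1KO replicate 2 (filled square) stands above replicate 1 for Mt1 and Mt2, and Slc39a14 is the importer whose Y1KO arrays lie well above all WT arrays.

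Genes of iron uptake and reduction moved in opposite directions. Of 8 measured, 2 rose and 3 fell, beside 6.1% and 6.64% over all genes, and the median difference was 0.00. Cybrd1, a ferric reductase of the cell surface that also recycles ascorbate, read 6.85, 5.76, 7.69 and 7.54 in WT and 8.67 and 9.20 in Y1KO. It rose by 1.97 (SE 0.47, limma adjusted p = 0.0265), or 3.93-fold. The WT arrays spanned 1.93, with WT replicate 2 the lowest, and both Y1KO arrays still lay above all of them. The call was lost with limma's trend and robust options (adjusted p = 0.111), without moderation (0.216) and without WT replicate 1 (0.0541), Y1KO replicate 1 (0.0991) or Y1KO replicate 2 (0.23). Slc11a2, the ferrous iron transporter DMT1, read 8.45, 8.20, 8.28 and 8.10 in WT and 8.95 and 8.78 in Y1KO. It rose by 0.61 (SE 0.12, limma adjusted p = 0.00978), or 1.53-fold, more than the WT range of 0.35. Without Y1KO replicate 1 or 2 its adjusted p was 0.104 and 0.0642.

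The STEAP metalloreductases, which reduce iron and copper in endosomes and at the surface, differed among themselves. Steap4, the member linked to inflammation and fat cells, read 6.09, 5.77, 8.57 and 6.86 in WT and 4.00 and 4.46 in Y1KO. It fell by 2.59 (SE 0.65, limma adjusted p = 0.0327), a 6.03-fold difference. WT replicate 3 alone stood far above the rest, yet both Y1KO arrays were below the lowest WT array. In Y1KO it lay at percentile 27.1 of all genes, where the array can understate differences. The call was lost with limma's trend and robust options (adjusted p = 0.128), without moderation (0.237) and without WT replicate 4 (0.0731), Y1KO replicate 1 (0.206) or Y1KO replicate 2 (0.162). With the replicate number as a block the difference was -1.70 (adjusted p = 0.00315). Steap2 read 7.84, 8.30, 7.52 and 7.77 in WT and 7.10 and 6.95 in Y1KO, and fell by 0.83 (SE 0.19, limma adjusted p = 0.0219). A second, dim probe set of Steap2, at 3.83 in WT and 3.87 in Y1KO, differed by 0.05, and with the mean of both probe sets the difference was -0.39 (adjusted p = 0.0951). Without Y1KO replicate 1 or 2 the adjusted p was 0.1 and 0.193. Steap1 went the other way without passing the test, at 0.41 (95% interval 0.13 to 0.68, limma adjusted p = 0.0601); without WT replicate 2 it was 0.48 (0.0195). Steap3, the endosomal ferrireductase of red cell precursors, differed by 0.27 (limma adjusted p = 0.266), with groups that overlapped.

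Of the transferrin receptors, Tfr2 was called and Tfrc was not, and whether their responses differ was not tested. Tfr2, a sensor of iron-loaded transferrin that also binds bone morphogenetic proteins in bone cells, read 6.26, 6.18, 5.96 and 6.22 in WT and 5.52 and 5.76 in Y1KO. It fell by 0.51 (SE 0.12, limma adjusted p = 0.0224), and the groups did not overlap. The call was lost without WT replicate 1 (adjusted p = 0.0541), WT replicate 4 (0.0547), Y1KO replicate 1 (0.201) or Y1KO replicate 2 (0.0741). Tfrc, the main receptor for transferrin uptake and high in dividing cells, read 9.13, 8.36, 7.86 and 7.52 in WT and 8.66 and 7.24 in Y1KO. Arrays of the same genotype differed by as much as 1.61, far more than the genotypes did, and the difference was -0.27 (95% interval -1.34 to 0.80, limma adjusted p = 0.807). Without WT replicate 1 it was 0.03, and without Y1KO replicate 2 it was 0.44. With the replicate number as a block the Tfrc difference was -0.80 (limma adjusted p = 0.0262). Genes of dividing cells had a mean of 8.52 to 8.64 in WT and of 7.79 and 7.61 in Y1KO, and their part in the Tfrc values was not tested. Markers of red cell precursors were dim in all arrays: 7 of 12 were measured, with a mean of 4.16 to 4.32 in WT and 4.19 and 4.26 in Y1KO. Of these 7, 0 were called, beside 12.7% over all genes, and 0 had an unadjusted p under 0.05.

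On the export side, Cp had the smallest p of all 40 genes. Ceruloplasmin oxidises ferrous iron as it leaves the cell and is also an acute-phase protein. Cp read 8.92, 8.96, 9.76 and 9.07 in WT and 7.32 and 7.57 in Y1KO. It fell by 1.74 (SE 0.22, limma adjusted p = 0.00216), or 3.33-fold, and both Y1KO arrays lay more than 1 below every WT array. The call held when any 1 array was left out (adjusted p = 0.000651 to 0.0315) and was lost without moderation (0.0811). Slc40a1, which encodes ferroportin, the iron exporter, read 5.42, 5.86, 7.06 and 6.60 in WT and 4.96 and 6.23 in Y1KO. The spread within each genotype was wide and the groups overlapped, and the difference of -0.64 (95% interval -1.70 to 0.42) did not pass the test (limma adjusted p = 0.485). Leaving out Y1KO replicate 1 gave 0.00 and leaving out Y1KO replicate 2 gave -1.28. The value was -0.36 without WT replicate 3 and -0.04 with the replicate block. WT replicate 3 held the highest WT value of Cp, Slc40a1, Steap4 and Cybrd1. In these sorted populations, fewer cells that express a gene and less RNA per cell cannot be told apart.

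Fth1, Ftl1, Aco1 and Ireb2, taken here for iron storage and its regulation, were not called. The ferritin subunits differed in opposite directions without being called: 0 rose and 0 fell by limma, beside 6.1% and 6.64% over all genes. Both had an unadjusted p under 0.05, and 0 were called without moderation. Fth1, the heavy chain that oxidises iron, read 11.82, 11.95, 12.00 and 11.85 in WT and 11.56 and 11.65 in Y1KO, a difference of -0.30 (95% interval -0.51 to -0.09, limma adjusted p = 0.0747). Ftl1, the light chain that nucleates the iron core, read 11.84, 11.99, 11.68 and 11.98 in WT and 12.08 and 12.25 in Y1KO, a difference of 0.30 (0.04 to 0.56, limma adjusted p = 0.143). In neither gene did the groups overlap. Ferritin genes have many near-identical copies, and 4 further probe sets that list Ftl1 with microRNA genes were not used, so these values are uncertain. Aco1 and Ireb2 encode the iron regulatory proteins that bind ferritin and transferrin receptor mRNAs. Aco1 read 9.0, 9.06, 8.78 and 9.06 in WT and 8.80 and 8.72 in Y1KO (difference -0.22, 95% interval -0.46 to 0.03). Ireb2 read 8.75, 8.78, 8.73 and 8.78 in WT and 8.92 and 8.89 in Y1KO (0.14, -0.04 to 0.33). For this pair 0 were called, and 0 had an unadjusted p under 0.05 or a call without moderation.

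**Figure D4:**
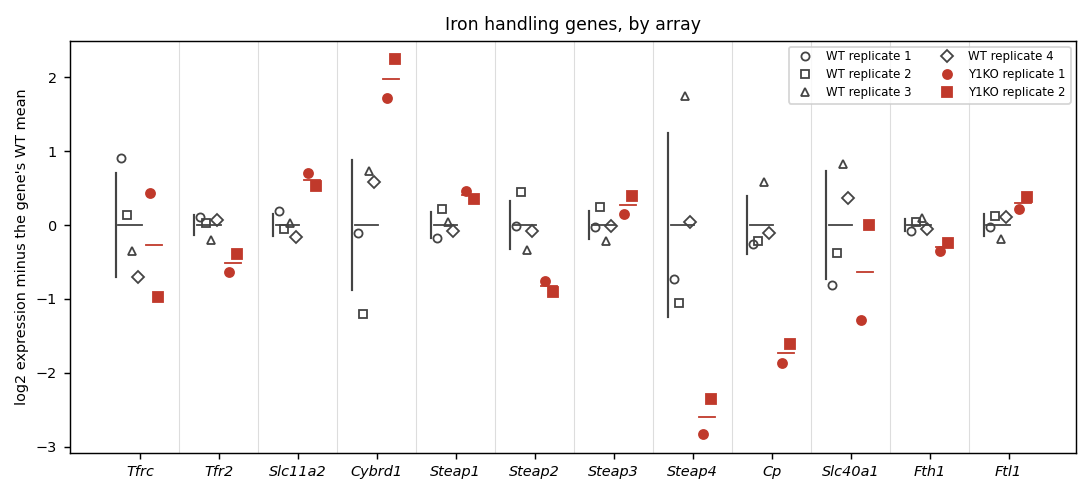
Log2 expression of 12 iron genes in each array, minus the WT mean of that gene, with symbols and lines as in the plot of the secretory pathway transporters. Steap4 and Cp lie below and Cybrd1 above all WT arrays in both Y1KO arrays, while Tfrc and Slc40a1 vary as much within a genotype as between genotypes.

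The wider metal pathways, taken from lists made without these 40 genes, moved in both directions. Of 76 such genes, 8 rose and 7 fell, beside the 12.7% called over all genes, with a median difference of 0.03. Without Y1KO replicate 1 the counts were 4 and 1, and without Y1KO replicate 2 they were 0 and 1; 3 fell without WT replicate 1 and 4 without WT replicate 2. In the hormone and uptake list, 2 of 13 fell and 0 rose: Trf, which encodes transferrin, from 7.64 ± 0.42 (SD, n = 4) to 6.19 ± 0.24 (SD, n = 2), by 1.44 (limma adjusted p = 0.00593), and the ferroxidase gene Heph, by 0.71 (0.0403). The count was 1 with quantile normalization, with the replicate block and without WT replicate 4, and 0 without moderation and without either Y1KO array. Hamp, the gene of the iron hormone hepcidin, stood at 2.34 in WT, at percentile 3.1 of all genes, with a difference of 0.10. Among 9 genes of ferritin loading and turnover, 2 fell and 0 rose, the iron chaperone relative Pcbp3 by 0.38 (limma adjusted p = 0.0228) and Fbxl5, the iron sensor that removes Ireb2 protein, by 0.30 (0.0495). This count was 1 with quantile normalization, with median-centred arrays, with the replicate block and without WT replicate 2 or 4. It was 0 without moderation, without WT replicate 1 and without either Y1KO array.

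In the heme list 5 of 16 genes rose and 2 fell, beside 6.1% and 6.64% over all genes. The biliverdin reductase gene Blvra, of heme breakdown, fell by 0.62 (limma adjusted p = 0.00262), while Slc46a1, a folate and heme transporter, and Cpox, an enzyme of heme synthesis, rose by 0.51 (0.00975) and 0.79 (0.0114). Named after its value was seen, Flvcr2, a transporter related to the heme exporter FLVCR1, rose the most of the list, by 1.36 (limma adjusted p = 0.0136). When Y1KO replicate 1 was left out, 2 of the list were higher and 1 lower, and when Y1KO replicate 2 was, 0 and 1. Without moderation the counts were 1 and 1, and 1 was lower without WT replicate 1 or 2. Of 19 genes of mitochondrial iron and iron-sulfur clusters, 1 rose, Ciapin1 by 0.61, and 1 fell, Lyrm4 by 0.44. No gene of that list was called lower with quantile normalization, with median-centred arrays, without moderation, without WT replicate 1, 2 or 3, or without either Y1KO array; 2 were without WT replicate 4. None was called higher without moderation or without Y1KO replicate 2. Of 10 copper genes 2 rose, the copper transporters Slc31a1 by 0.47 (limma adjusted p = 0.0161) and Slc31a2 by 0.46 (0.0383). The copper count was 1 with the replicate block and without WT replicate 1, WT replicate 2 or Y1KO replicate 1, and 0 without moderation and without Y1KO replicate 2. In the list of zinc sensing and other zinc and manganese transport 0 of 9 were called by limma, 2 had an unadjusted p under 0.05 and 0 were called without moderation. Mtf1, the zinc sensor that acts on the metallothionein promoters, differed by -0.20 (limma adjusted p = 0.265).

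**Figure D5:**
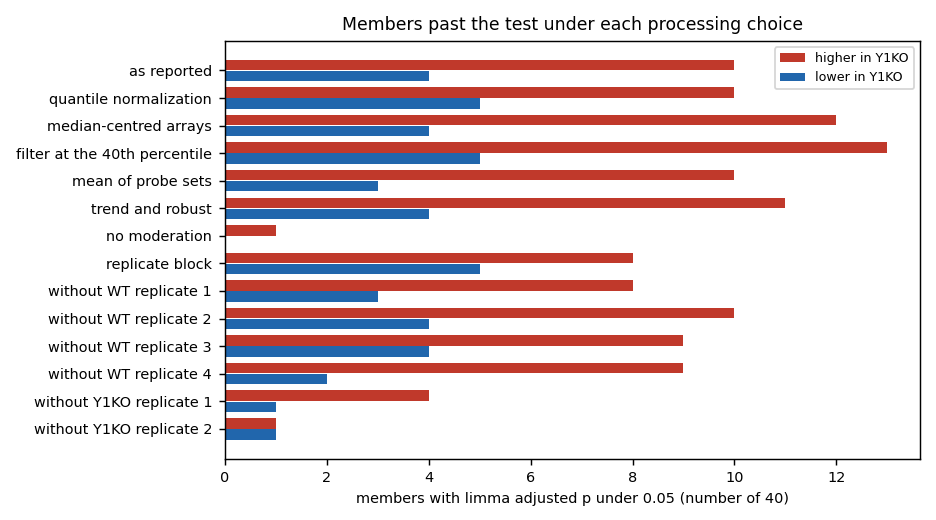
Number of the 40 genes with a limma adjusted p under 0.05, higher (red) and lower (blue) in Y1KO, as reported and under each processing choice. The counts are 10 and 4 as reported, 8 to 13 and 3 to 5 under the other choices with all 6 arrays except no moderation, and fall to 4 and 1 or 1 and 1 when a Y1KO array is left out.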

How the data were processed

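RNA of sorted osteoblastic cells was measured on 6 single-channel Affymetrix arrays, 4 WT and 2 Y1KO. The authors deposited log2 expression values for 28815 probe sets. The submitters' processing notes name RMA and limma, without versions, and no source used here gives a genome build. The values were used without further normalization. Precision is limited by the number of arrays. Of the probe sets, 21780 had exactly 1 gene symbol in the repository's platform annotation; others were not used. The probe set of highest mean stood for a gene, which left 19935 genes. Y1KO was compared with WT, two-sided, with limma 3.58.1 (lmFit, eBayes) in R 4.3.3, with Benjamini-Hochberg adjustment over all genes; the fit was tested on simulated data. Genes called, or 0.5 or more apart without overlap, were given by array, as were Mt1, Mt2, Tfrc, Slc40a1, Fth1, Ftl1, Slc11a2, Aco1, Ireb2, Slc39a14 and Slc39a8; up to 3 called genes of smallest p were named per related list. The members, lists and roles were chosen with earlier results of these data known. The alternatives were quantile normalization, median-centred arrays, a filter at the 40th percentile of mean expression, averaging all probe sets of a gene, trend and robust options, no moderation, the replicate number as a block, and leaving out each array. Promoter sequences came from RefSeq.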

Additional observations from a re-analysis of the deposited data

Results flagged for a closer look

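Slc30a9 had a WT array that stood apart from the others: WT replicate 2 read 7.79, while the other 3 WT arrays read 7.92, 7.94 and 7.95. The gap took up 0.836 of the WT range, just above Dixon's 95% limit for 4 samples. Of the 40 genes examined in this way 1 was marked, and chance marks about 1 in 20.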

How the results depend on the processing

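With all 6 arrays, the 14 called genes kept their direction in every alternative, and 12 to 14 kept their calls with the 2 other normalizations, the 40th percentile filter, the mean of probe sets, trend and robust options and the replicate block. The genes lost were Mt1 with quantile normalization, Steap2 with the mean of probe sets, Cybrd1 and Steap4 with trend and robust options, and Mt1 and Slc39a7 with the replicate block. Without moderation 1 gene was called higher and 0 lower, and 1 and 1 of the 76 related genes. With quantile normalization 4 related genes were called lower. Leaving out 1 array gave 1 to 10 genes higher and 1 to 4 lower, and 0 to 8 and 1 to 6 of the related genes. Calls were gained by Fth1 and Steap1 (quantile normalization, filter, trend and robust options), Slc30a7 (median-centred arrays, filter, trend and robust options) and Slc30a9 (median-centred arrays, filter). Signs turned only for genes that were not called. Slc30a3 went to 0.05 with quantile normalization, 0.01 with median-centred arrays and 0.01 with the replicate block, and Slc39a6 to -0.08 with the replicate block. Over the fits that leave out 1 array, differences ranged from -0.02 to 0.01 for Slc30a3, -0.14 to 0.05 for Slc30a10, -0.01 to 0.1 for Slc39a12, -0.21 to 0.12 for Slc39a4, -0.24 to 0.01 for Slc39a5, -0.01 to 0.2 for Slc39a6, -0.09 to 0.2 for Slc39a8 and -0.98 to 0.44 for Tfrc. The replicate block gave 8 genes higher and 5 lower, Tfrc among the latter (-0.80, limma adjusted p = 0.0262). The labels do not say what the replicate numbers stand for. Deviations from the group means correlated at 0.01 over all genes for the arrays numbered 1 and at -0.20 for those numbered 2. With 2 Y1KO arrays these values cannot show whether arrays of the same number were handled together. The cause of each change was not tested, and a group left with 1 array was assumed to vary like the other.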

Other observations

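A few of these genes varied between arrays of 1 genotype much more than genes in general did. The WT arrays spanned more than 1 on the log2 scale for 4 of the 40 genes (10%), Cybrd1, Slc40a1, Steap4 and Tfrc, against 1.7% of all genes. The Y1KO arrays differed by more than 0.5 for 5 of the 40 (12.5%), against 1.9% of all genes. These were Tfrc and Slc40a1, by 1.42 and 1.28 in opposite directions, Mt2, Mt1 and Cybrd1, with Y1KO replicate 2 the higher array for all but Tfrc. WT replicate 3 held the highest WT value for 6 of the 40 genes (15.0%), fewer than the 21.6% of all genes. These were Cp, Slc40a1, Steap4, Cybrd1, Fth1 and Slc39a4, of which Cybrd1 was higher and Cp and Steap4 lower in Y1KO. The ferroxidase and transferrin genes Heph and Trf of the related lists also had their highest WT value there, at 7.24 and 8.21.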
